A study of Homo sapiens with 12 samples.

Results

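Of the 1346 miRNAs counted in HCT116 cells, 75 late-numbered ones are described here across wild-type and mutant forms of DICER. They were chosen by name and by abundance: a miRNA number of at least 1200 and a sum of at least 36 raw counts over the 12 libraries, with 12 late-numbered entries left out by name. The names hold 27 entries of the 5p arm, 14 of the 3p arm and 34 with no arm. In all, 453 miRNAs reached 36 counts and 704 entries carried a late number, of which 617 stayed under 36 counts. The sum of counts thus set who is a member, but it took no account of the DICER group. Just inside the threshold were miR-4787-5p with 37 counts and miR-3176 and miR-1910-5p with 39 each, and just outside were miR-3607-5p with 35, miR-3065-3p and miR-6807-3p with 33, and miR-6511a-3p and miR-7108-3p with 32.

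A miRNA gene is transcribed as a long primary RNA, from which Drosha cuts a short hairpin, the precursor. DICER, an RNase III enzyme, removes the loop of this hairpin and leaves a duplex of a 5p and a 3p strand, and one strand is kept by an Argonaute protein and guides it to messenger RNAs through its seed. miRNAs are numbered roughly in the order of their discovery, so that high numbers belong mostly to entries found by deep sequencing, many of them scarce, many found in few species, and some overlapping other non-coding RNAs. How conserved the members are was not analysed here, and they are called late-numbered because the number is what the rule used.

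The small RNA of HCT116, a human colorectal carcinoma line, was sequenced by AQ-seq, a protocol made to lower ligation bias, after rescue with wild-type DICER (WT), R821E, R821A, ΔPAZ helix, E5 or A5, with 2 libraries in each of the 6 groups. In R821E and R821A, going by the names, an arginine became glutamate or alanine, and in ΔPAZ helix a helix of the PAZ domain is missing. The sources used here do not give the meaning of E5 and A5, whether the cells keep DICER of their own, which promoter drives the rescue, or whether a group is 1 clone. The series addresses how human DICER holds a precursor while it cuts, and each mutant is set against WT, E5 against A5, and R821E against R821A. All 12 libraries share the cell line and the protocol, and the labels do not tell whether partner libraries stem from separate cultures. A p-value here therefore reflects the spread between these libraries, which may be technical.

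The libraries held 144067 to 255296 miRNA counts, so that 3 counts correspond to 11.8 to 20.8 CPM, the usual scaling of counts to the miRNA total of their library, and 66 to 75 of the members had at least 1 count in a library. Of 9 epithelial and colorectal marker miRNAs 8 reached 36 counts, with a sum of 20541 to 52661 CPM of all miRNA counts. The muscle marker in the table and the hepatocyte marker miR-122-5p stayed between 0 and 10.3 CPM. The marker sums of leukocytes, erythroid cells, neurons, and fibroblasts and endothelium lay between, from 125 to 1131 CPM, and were thus not absent. Below, 2 scales are used. The first, TMM, assumes that most miRNAs do not change, and CPM from here on is given on this scale. The second divides by the counts of 30 spike-in sequences, and thereby keeps a change shared by all miRNAs. In R821E there were 13.4 and 15.3 miRNA counts per spike-in count against 22.4 and 25.9 in WT, and the median of all 453 miRNAs was −0.03 (log2, R821E against WT) on TMM, −0.63 on total counts and −1.35 per spike-in count. The sources used here do not say when and in what amount the spike-ins were added, and in bulk RNA fewer cells and less miRNA per cell cannot be told apart.

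The mature sequences of 63 members were found in RefSeq (GRCh38.p14), and they are printed here for those that carry the results, from 5′ to 3′, with the seed (bases 2 to 8) in capitals. The first 6 are abundant members that took a larger share of the counts in R821E. The seeds are all different but for miR-1268a and miR-1268b, which share GGGCGUG and of which the first is contained in the second without a mismatch, so that their reads may have been counted for both and neither level is certain singly.
miR-4521: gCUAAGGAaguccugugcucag
miR-1268a: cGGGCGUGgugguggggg
miR-1268b: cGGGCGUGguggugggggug
miR-3613-5p: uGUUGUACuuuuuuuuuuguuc
miR-1275: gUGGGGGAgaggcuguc
miR-6724-5p: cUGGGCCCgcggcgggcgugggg

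On GRCh38, miR-4521 lies outside genes at chr17:8186948-8186969 (+), miR-1268a outside genes at chr15:22225308-22225325 (−), miR-1268b in an intron of CCDC40 at chr17:80098831-80098850 (+) and miR-1275 outside genes at chr6:34000018-34000034 (−). miR-3613-5p lies in an intron of DLEU2 at chr13:49996465-49996486 (−), the non-coding gene that also hosts miR-15a and miR-16-1. miR-6724-5p has copies on the short arm of chromosome 21, among them chr21:8249515-8249537 (+) and chr21:8432540-8432562 (+), a region that holds ribosomal RNA genes.

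The next set holds the 9 members that were lower in R821E than in WT. They are GC-rich, with a median GC content of 71.4% and a range from 59.1% to 90.0%. The median was 61.1% over the 63 members with a sequence, these 9 included. The 14 members with a sequence that rose had a median of 59.55% and a wider range, from 12.5% to 91.3%, and no difference was tested.
miR-3200-3p: cACCUUGCgcuacucaggucug
miR-1915-3p: cCCCAGGGcgacgcggcggg
miR-4787-3p: gAUGCGCCgcccacugccccgcgc
miR-3187-3p: uUGGCCAUggggcugcgcgg
miR-1249-3p: aCGCCCUUcccccccuucuuca
miR-2110: uUGGGGAAacggccgcugagug
miR-3615: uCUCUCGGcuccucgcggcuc
miR-1908-5p: cGGCGGGGacggcgauugguc
miR-3176: aCUGGCCUgggacuaccgg

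Of these, miR-3200-3p lies in an intron of OSBP2 (chr22:30731610-30731631, +), miR-1915-3p in an intron of CASC10 (chr10:21496576-21496595, −), miR-1249-3p in an intron of KIAA0930 (chr22:45200958-45200979, −) and miR-3176 in an intron of CAPN15 (chr16:543336-543354, +). Untranslated exons hold miR-2110 (CCDC186, chr10:114174151-114174172, −), miR-3615 (SLC9A3R1, chr17:74748663-74748683, +) and miR-1908-5p (FADS1, chr11:61815209-61815229, −). Outside genes lie miR-3187-3p (chr19:813627-813646, +) and miR-4787-3p (chr3:50675130-50675153, +).

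The members took a small part of all miRNA counts in every library, and the part was largest in R821E. In replicates 1 and 2 they held 4.81% and 5.90% of the counts in R821E, and 3.09% and 3.71% in WT. The shares were 3.84% and 3.91% in R821A, 3.70% and 3.92% in ΔPAZ helix, 4.89% and 3.63% in A5, and 4.41% and 3.73% in E5. The mean was 5.36% ± 0.772 in R821E (SD, n = 2), against 3.40% ± 0.437 in WT. The R821E libraries overlap those of A5 and stand above those of the other 4 groups. Relative to spike-in counts the same sums show no such rise: the mean was 0.763 member counts per spike-in count in R821E and 0.827 in WT, with 0.699 to 0.786 in the other groups. No test was made of these sums, since 2 libraries against 2 cannot reach the threshold in an exact permutation test.

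**Figure D1:**
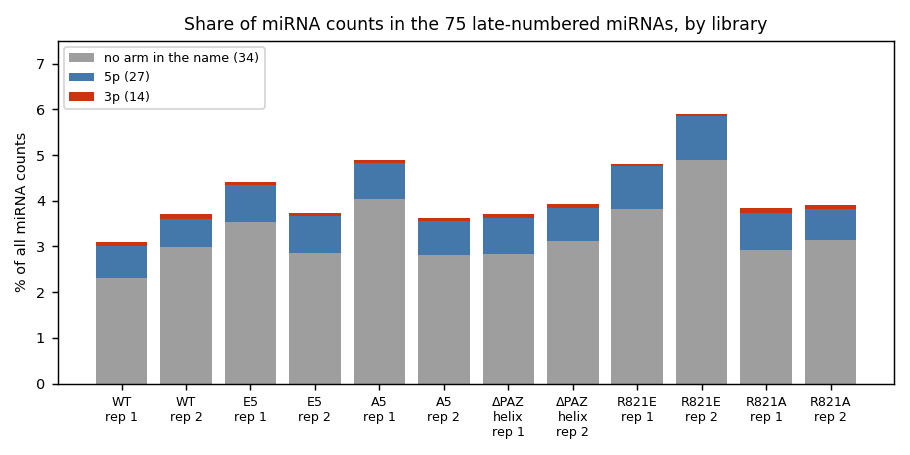
Share of all miRNA counts (y axis, %) held by the 75 members in each of the 12 libraries (x axis), stacked by the arm in the name. The bars of the R821E libraries reach 4.81% and 5.90%, those of the WT libraries 3.09% and 3.71%, and 3p entries are a thin band in every bar.

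A handful of entries supplied most of this share. miR-4521, miR-1268a, miR-1268b and miR-3613-5p together made 77.9% to 85.8% of the members' counts, 10 members had at least 1000 counts over the 12 libraries and 42 had fewer than 100. In WT the highest mean levels were 12089 ± 1372 CPM for miR-4521, 4784 ± 1999 for miR-1268b, 4528 ± 1970 for miR-1268a and 2993 ± 46.0 for miR-3613-5p (SD, n = 2). Then followed miR-1277-5p with 841 ± 120, miR-1296-5p with 692 ± 56.8, miR-4286 with 504 ± 379, miR-1275 with 405 ± 127, miR-6724-5p with 390 ± 43.3 and miR-4485-5p with 273 ± 68.5. The ranks of miR-1268a and miR-1268b, and those of miR-4286 down to miR-6724-5p, lie within the spread of the WT libraries. Every one of these 10 names the 5p arm or no arm. The 3p entries made up 2.76% ± 0.0595 of the members' counts in WT and 1.02% ± 0.0663 in R821E. Their means were 1.56% to 2.29% in the other groups. The 3p share of all miRNA counts fell as well, from a mean of 26.2% in WT to 11.5% in R821E, with 20.4% to 25.6% in the other groups.

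R821E gave nearly all the calls among the late-numbered miRNAs, on both arms and in both directions. On the TMM scale 16 of the 75 rose and 9 fell against WT (edgeR, adjusted p below 0.05 over 453 miRNAs). Among all 453 miRNAs 19.9% rose and 19.2% fell. The members' 21.3% of rises lies near this background and their 12% of falls below it, a difference that was not tested. Their median sum was 90 counts against 314 over all 453, which limits their calls. The counts include miR-6807-5p among the rises and miR-3176 among the falls, which reached 36 counts only through the group where they are high. Of the 27 5p members 6 rose and 1 fell, with a median log2 change of 0.55, and of the 34 members without an arm 9 rose and 3 fell, with a median of 1.01. Of the 14 3p members 1 rose and 5 fell, with a median of −0.56. Among all entries, 24.5% of 5p rose and 13.5% fell, 10.1% of 3p entries rose and 29.1% fell, and 31.8% of entries without an arm rose and 10.6% fell. The members make up 34 of those 66 entries without an arm. Over all entries the median log2 change was 0.22 for 5p, −0.53 for 3p and 0.86 for those without an arm. The 25 such entries numbered under 1200 or of the let-7 family had a median log2 change of −0.65, with 20% higher and 16% lower, and their difference from the members was not tested. Without R821E replicate 1 fewer of the 25 calls held, which was not counted over all 453 miRNAs.

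On the spike-in scale none of the 453 miRNAs rose in R821E and 54.1% fell, among them 21 of the 75 members, or 28%. These 21 include all 9 that fell on the TMM scale and none of the 16 that rose there. They also include miR-4713-5p, which like miR-3176 reached 36 counts only with its counts in WT. By arm, 9 of 27 5p members, 7 of 14 3p members and 5 of 34 without an arm fell, against 53.4%, 64.2% and 28.8% of all entries of those arms. The members held fewer counts than the other entries, so these shares are not at equal depth. The members' median log2 change was −0.84 on this scale, −0.10 on total counts and 0.48 on TMM, each above the median of all 453 on the same scale. With total counts as the scale 11 members rose and 11 fell, beside 8.83% higher and 33.8% lower among all 453. The sign of that median therefore depends on the scale, and so does the direction of the members without an arm, whose median was −0.29 on the spike-in scale. The 3p members had a negative median on all 3 scales, with −1.14 on total counts and −1.82 per spike-in count. This was no trait of the members, since all 179 3p entries had medians of −0.53 on TMM and −1.83 per spike-in count.

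**Figure D2:**
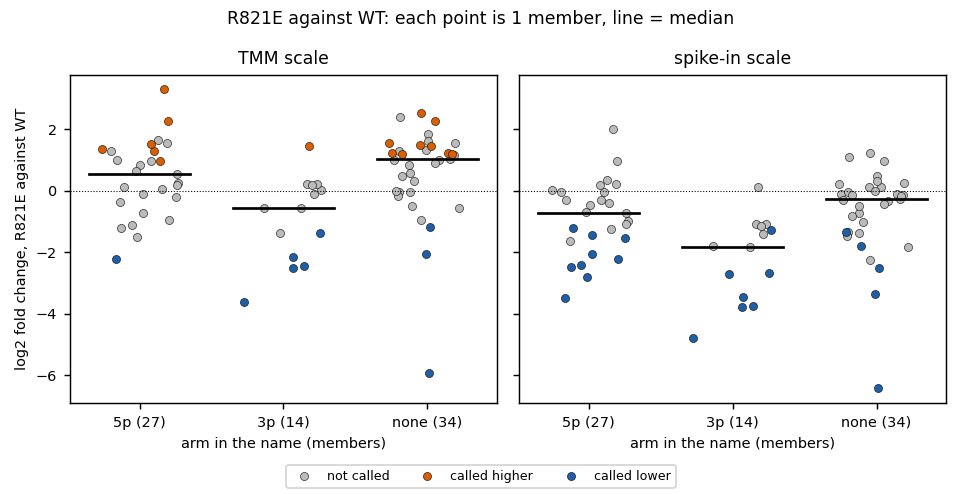
log2 fold change of each member (1 point) in R821E against WT, by the arm in the name, on the TMM scale (left) and the spike-in scale (right); lines are medians and colours mark members that passed the test. On the left 16 points are coloured as higher and 9 as lower, and on the right 21 as lower and none as higher.

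The summed marker miRNAs of epithelium, leukocytes, neurons, and fibroblasts and endothelium had separate ranges in WT and R821E. Those of the erythroid pair overlapped. The sums are on total counts, a scale on which the median of all tested miRNAs was itself −0.63 (log2, R821E against WT). Whether any sum departed from this general shift was not tested. The summed level of 9 epithelial and colorectal markers was 30365 to 52661 CPM of all miRNA counts in WT and 20541 to 22892 in R821E, that of 4 leukocyte markers 295 to 443 and 125 to 148, that of 2 neuronal markers 526 to 562 and 868 to 972, and that of 3 fibroblast and endothelium markers 760.4 to 1085 and 244 to 333. The erythroid pair was at 141.6 to 191 in WT and 174 to 305 in R821E. Since HCT116 is a single cell line, these lists describe miRNAs and not cells, and their part in the members' changes was not tested.

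Among the abundant members, miR-4521 stood at 11119 and 13059 CPM in WT and at 28033 and 26501 in R821E. The other groups lay between 11307 (R821A) and 19828 (E5), below both R821E libraries. The log2 change in R821E was 1.17 ± 0.21 (SE), with an edgeR adjusted p of 0.000825. On the spike-in scale it was −0.17 ± 0.24, with an adjusted p of 0.579.

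miR-3613-5p, from the DLEU2 intron, was the steadiest of them. Its levels were 3025 and 2960.2 CPM in WT and 8258 and 6954 in R821E. R821A stood at 3793 and 3799, ΔPAZ helix at 4459.7 and 3507, A5 at 3827 and 3579, and E5 at 4303 and 4208. Every mutant library was above both WT libraries, and both R821E libraries were above all others. The log2 change in R821E was 1.35 ± 0.15 (edgeR adjusted p = 3.84e-06) and 0.01 ± 0.18 on the spike-in scale.

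The entries miR-1268a and miR-1268b, which share their sequence, are best read as one level. miR-1268b was at 3371 and 6198 CPM in WT and at 11442 and 14934 in R821E, with 4766 to 8599 in the other libraries. WT replicate 1 was the lowest of all libraries for both entries. The log2 changes were 1.47 ± 0.32 for miR-1268a (adjusted p = 0.00573) and 1.46 ± 0.31 for miR-1268b (adjusted p = 0.00518) by edgeR, and both were 0.11 on the spike-in scale.

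miR-1275 was at 315 and 495 CPM in WT, between 346 and 538 in the other 4 mutants, and at 1326 and 1052 in R821E. Its log2 change of 1.56 ± 0.26 passed the edgeR test with an adjusted p of 0.000209. miR-6724-5p, of the ribosomal DNA region, was at 421 and 359.7 CPM in WT, between 543 and 799 in the other 4 mutants, and at 1053 and 1201 in R821E. Here the WT libraries were the lowest and the R821E libraries the highest of all, with a log2 change of 1.52 ± 0.22 (adjusted p = 7.89e-05). Scaled by spike-ins these changes were 0.21 ± 0.28 and 0.19 ± 0.21, and neither passed the test.

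Both arms of MIR4485 rose, from a hairpin that lies in MTRNR2L8, a nuclear copy of the mitochondrial 16S ribosomal RNA. miR-4485-5p was at 322 and 225 CPM in WT and 675 and 658 in R821E, a log2 change of 1.28 ± 0.26 (edgeR adjusted p = 0.00108). miR-4485-3p was at 119.8 and 191 CPM in WT and 434 and 412 in R821E, a log2 change of 1.45 ± 0.32 (adjusted p = 0.00187). It was the only 3p member that rose on the TMM scale, and both arms were near their WT level per spike-in count, at −0.05 ± 0.24 and 0.10 ± 0.34.

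miR-4517, in an untranslated exon of NFATC2IP, rose by 1.18 ± 0.28 (edgeR adjusted p = 0.00367), from 151 and 169 CPM to 366 and 359.5. In A5, ΔPAZ helix and R821A it stood between 256 and 337 CPM, above both WT libraries, and did not pass the test. miR-1277-5p, in an intron of WDR44 and with only 12.5% GC, rose by 0.95 ± 0.24 (adjusted p = 0.00569), from 756 and 926 CPM to 1778 and 1464. The libraries of E5 lay at 1306 and 822 CPM and those of A5 at 1375 and 905, and both R821E libraries were above all others. Neither passed on the spike-in scale, where the changes were −0.15 and −0.39.

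The other members that rose were scarce, and their values rest on few counts. miR-6807-5p, in an intron of TRIM28, had 3 counts in WT (1 and 2) and 16 in R821E (11 and 5), a ratio of 10.8 with a 95% counting interval of 3.10 to 58.0. It holds 51 counts over the 12 libraries and 35 without R821E, under the bound of 36, so it entered the table only through the group where it is high and its rise is given as a description. miR-1257, in an untranslated exon of TAF4, had 6 counts in WT (2 and 4) and 18 in R821E (11 and 7), a log2 change of 2.54 ± 0.68 (edgeR adjusted p = 0.00739). miR-3662, in an intron of HBS1L, went from 13.7 and 18.7 CPM in WT to 74.3 and 87.7 in R821E, and miR-4662a-5p from 24.0 and 11.2 to 80.5 and 96.5. For both, all 10 libraries of the other groups were below both R821E libraries, and the log2 changes were 2.28 ± 0.55 and 2.26 ± 0.55 with an adjusted p of 0.00415 each. These 4 had the highest changes of the 16 on the spike-in scale too, 0.95 to 2.00, where none passed the test. miR-3648 (1.22 ± 0.44) and miR-4449 (1.22 ± 0.45) passed with edgeR adjusted p-values of 0.0367 and 0.0380. With 1 of the 4 libraries left out, miR-4449 passed in no case, miR-3648 passed only without WT replicate 1 (103 CPM against 33.7 in its partner), and miR-6807-5p, miR-1257 and miR-1277-5p did not pass without R821E replicate 1.

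**Figure D3:**
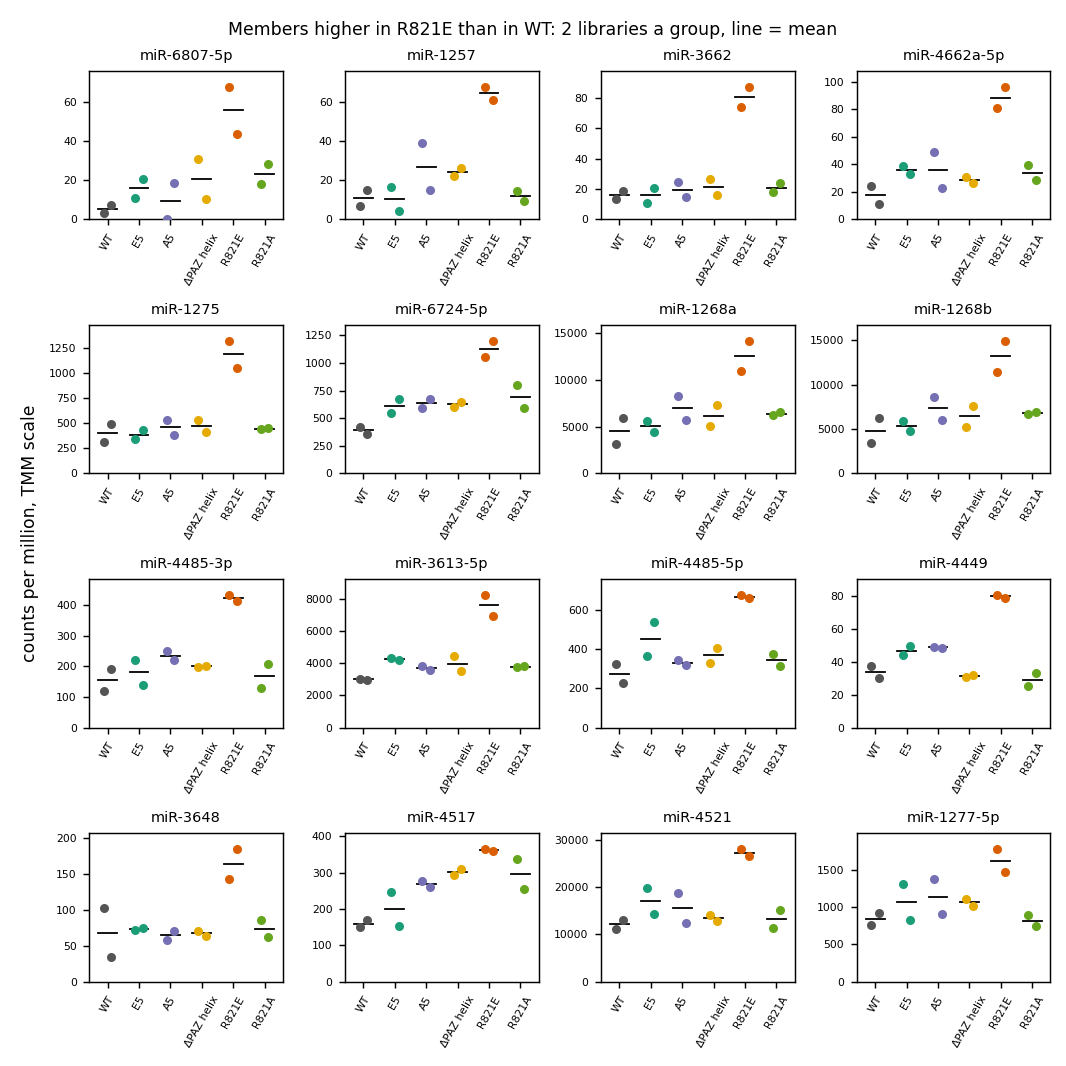
Level (y axis, CPM on the TMM scale) of the 16 members that rose in R821E, in the 2 libraries (points) of each group, with the mean as a line. For miR-4521, miR-3613-5p and miR-1275 both R821E points lie above all 10 others.

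All 9 members that fell in R821E on the TMM scale fell on the spike-in scale as well, and 5 of them name the 3p arm. Their summed counts were 196 and 224 in the WT libraries and 29 and 26 in the R821E libraries, or 671 and 839 CPM against 180 and 228. R821A held 817 and 611 CPM of them, ΔPAZ helix 524 and 523, A5 419 and 570, and E5 423 and 463. Only R821A overlapped with WT in this sum. Since R821E against WT chose these 9, the sums are a description.

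miR-3200-3p had 24 counts in each WT library, 1 and 3 in R821E and 40 and 15 in R821A. The 2 libraries of E5 had 4 and 5 counts, those of A5 7 and 5, and those of ΔPAZ helix 4 and 12. In CPM this was 82.1 and 89.9 in WT, 6.20 and 26.3 in R821E, and 143.4 and 71.0 in R821A. The log2 change in R821E was −2.50 ± 0.75 (edgeR adjusted p = 0.0132), a ratio of 0.169 with a counting interval of 0.0443 to 0.462, and the call did not hold without R821E replicate 1. All libraries of E5, A5 and ΔPAZ helix were also below both WT libraries, with log2 changes of −1.99, −1.73 and −1.13 and adjusted p-values of 0.0597, 0.248 and 0.474 on the TMM scale, none of which passed. Per spike-in count, miR-3200-3p fell in E5 (−2.59, adjusted p = 0.00497) and in A5 (−2.18, adjusted p = 0.0211).

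miR-1915-3p, with 90.0% GC, had 25 and 21 counts in WT, 3 and 1 in R821E and 31 and 21 in R821A. Its levels were 85.6 and 78.7 CPM in WT, 18.6 and 8.77 in R821E and 111 and 99.5 in R821A. ΔPAZ helix stood at 74.9 and 111, A5 at 43.9 and 67.0, and E5 at 49.4 and 37.2. The R821E libraries were the lowest of the 12. The log2 change was −2.46 ± 0.59 (edgeR adjusted p = 0.00376), and of the 9 falls it was the only one that held without each of the 4 libraries in turn.

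miR-3615, in an untranslated exon of SLC9A3R1, was at 147 and 202 CPM in WT, 68.1 and 87.7 in R821E, 276 and 194.2 in R821A and 127 to 149 in the other 6 libraries. Its log2 change was −1.18 ± 0.36 (edgeR adjusted p = 0.0142). miR-1249-3p was at 116 and 112 CPM in WT and 37.2 and 52.6 in R821E, with a change of −1.37 ± 0.47 (adjusted p = 0.0301). One ΔPAZ helix library, at 37.0 CPM, was as low as R821E, and the call for miR-1249-3p did not hold without any of the 4 libraries. For miR-3615 it did not hold without WT replicate 2 or R821E replicate 1.

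miR-2110 was at 78.7 and 74.9 CPM in WT, 18.6 and 17.5 in R821E, and 21.5 and 28.4 in R821A. The other mutants had 26.4 and 79.2 CPM (ΔPAZ helix), 48.7 and 74.5 (A5) and 54.9 and 66.1 (E5), so 1 ΔPAZ helix library lay between those of R821A. The change was −2.05 ± 0.63 in R821E (edgeR adjusted p = 0.0159) and −1.62 in R821A, where it did not pass on the TMM scale (adjusted p = 0.122) but did on the spike-in scale (−2.02, adjusted p = 0.0284). In R821E the call did not hold without either R821E library. miR-3187-3p was at 51.3 and 149.9 CPM in WT and 12.4 and 35.1 in R821E, with a change of −2.15 ± 0.75 (edgeR adjusted p = 0.0305). R821A (46.6 and 18.9 CPM), ΔPAZ helix (66.1 and 26.4) and E5 (27.4 and 33.0) reach into the range of R821E. Both A5 libraries, at 38.998 and 78.2 CPM, were above it. Here WT replicate 2 stood apart, and the call did not hold without it or without either R821E library.

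The rarest falls rest on very few counts. miR-3176 had 14 and 5 counts in WT and 0 in both R821E libraries, which makes it at least 3.12-fold lower when 3 counts are allowed over the R821E group, and 0 to 4 counts in every other mutant library. Its 39 counts fall to 20 without WT, again under the bound of 36, so its fall is a description too. miR-4787-3p had 9 and 19 counts in WT and 1 and 0 in R821E, a ratio of 0.0725 with an interval of 0.00177 to 0.438. miR-1908-5p had 9 and 11 counts in WT and 2 and 0 in R821E, a ratio of 0.203 with an interval of 0.0230 to 0.836. For miR-4787-3p and miR-1908-5p the edgeR adjusted p-values were 0.0139 and 0.0494. The call for miR-3176 did not hold without WT replicate 1, those for miR-4787-3p and miR-1908-5p did not hold without WT replicate 2, and none of the 3 held without R821E replicate 2. Without R821E replicate 1, miR-3176 and miR-4787-3p did not pass either. These intervals and bounds cover counting error only and leave out the spread between the libraries of a group. Where reads amplified by PCR are not tagged with molecular identifiers, they can also be copies of 1 molecule.

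**Figure D4:**
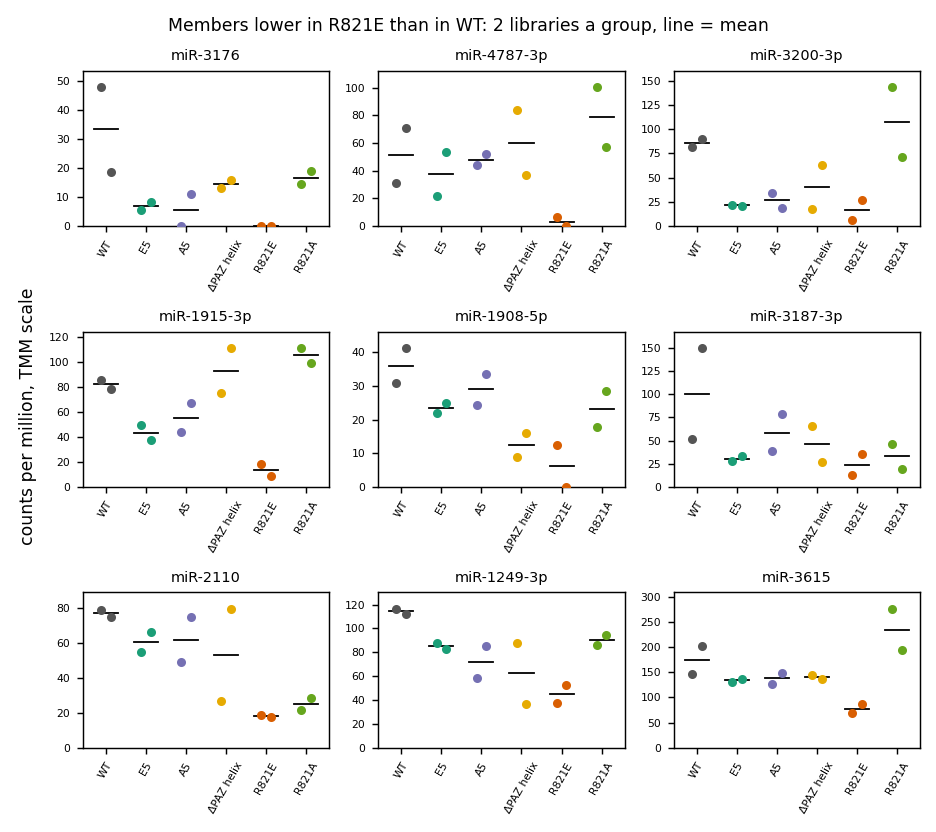
Level (y axis, CPM on the TMM scale) of the 9 members that fell in R821E, in the 2 libraries (points) of each group, with the mean as a line. The R821E points of miR-1915-3p (18.6 and 8.77) and miR-3615 (68.1 and 87.7) are the lowest of all 12 libraries.

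Some members passed only on the spike-in scale. miR-1296-5p was at 732 and 652 CPM in WT and 694 and 807 in R821E, with a log2 change of 0.11 ± 0.22 (edgeR adjusted p = 0.727), but fell by 1.23 on the spike-in scale (adjusted p = 0.000143). Altogether 12 members fell only on the spike-in scale, 8 of them 5p, 2 of them 3p and 2 without an arm, by 1.23 (miR-1296-5p) to 2.80 (miR-4707-5p). They are 24% of the 50 members with no call on TMM. Among the 225 earlier-numbered entries with no call there 136, or 60.4%, fell per spike-in count. The medians of these 2 sets lay closer together, at −1.08 and −1.43 on the spike-in scale. Members also held fewer counts, with a median sum of 90 against 420 over all 366 earlier-numbered entries. The shares are therefore not at equal depth, and their difference was not tested. Of the 16 members that rose on TMM, 12 were within 0.5 of 0 on the spike-in scale, with a median of 0.10 over the 16.

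Among the 75 are both arms of 6 hairpins, for which the 5p to 3p ratio within a library needs no scaling. Over all hairpins whose 2 arms each reached 36 counts, the ratio moved toward 5p in 24.1% and toward 3p in 7.52% (limma, R821E against WT), and among the 6 it passed the test in 1, toward 5p. This was MIR4787, a GC-rich hairpin outside genes at chr3:50675080-50675163 (+), printed with its 5p and then its 3p arm in capitals.
MIR4787 hairpin: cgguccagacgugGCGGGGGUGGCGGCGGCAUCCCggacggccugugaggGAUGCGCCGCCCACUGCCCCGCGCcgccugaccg

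The 5p arm of MIR4787 had 0 and 4 counts in WT and 2 and 2 in R821E, while the 3p arm had 9 and 19 and then 1 and 0. In R821A the counts were 9 and 5 for the 5p arm and 28 and 12 for the 3p arm. The log2 ratio was −3.18 in WT and 1.53 in R821E, a shift of 4.71 ± 1.02 (limma adjusted p = 0.00330), so that the arm with more counts was 3p in WT and 5p in R821E. The shift rests on 8 counts of the 5p arm in these 4 libraries, and the hairpin was not tested when a mean of 20 counts in each arm was asked for. MIR3613, whose ratio already favoured 5p by 6.81 in WT, shifted by 1.06 ± 0.50 toward 5p (limma adjusted p = 0.113), and MIR5699 by 2.46 ± 1.20 (adjusted p = 0.123). The shifts were −1.22 for MIR4707, −0.17 for MIR4485 and −0.13 for MIR1296, and none of these 5 passed.

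The glutamate and alanine substitutions were then compared directly. In R821E, 13 of the 75 members were higher than in R821A and 4 lower (edgeR, TMM scale), beside 17.4% higher and 16.3% lower among all 453. By arm, 5 of 27 5p members were higher and 0 lower, 1 of 14 3p members was higher and 3 lower, and 7 of 34 without an arm were higher and 1 lower. Over all entries of these arms 22.1% of 5p were higher and 10.1% lower, 9.50% of 3p higher and 26.3% lower, and 24.2% of those without an arm higher and 9.09% lower. The members without an arm had a median log2 difference of 0.74, and the 25 earlier-numbered entries without an arm had −0.57, with 12% higher and 20% lower (difference not tested). Per spike-in count 0 members were higher and 13 lower, or 17.3%, beside 0.662% higher and 43.7% lower among all 453. With total counts as the scale 5 members were higher and 7 lower, beside 4.42% and 29.1% of all 453. This comparison shares the R821E libraries with the one against WT, so its agreement in direction is no separate evidence.

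Higher in R821E than in R821A were miR-1275 by 1.41 ± 0.26 (adjusted p = 0.000782), miR-3613-5p by 1.00 ± 0.15 (adjusted p = 0.000135) and miR-4521 by 1.05 ± 0.21 (adjusted p = 0.00253), all log2 by edgeR. Each held without any 1 of the 4 libraries, and on the spike-in scale they were at 0.47, 0.06 and 0.09 and did not pass. The other higher members had log2 changes from 0.69 (miR-6724-5p) to 2.44 (miR-5699-5p), among them miR-4485-3p with 1.34, miR-4449 with 1.46, miR-3662 with 1.94 and miR-1257 with 2.36, and miR-1277-5p, miR-1268a, miR-1268b and miR-4485-5p with 0.95 to 0.99. miR-5699-5p had 16 counts in R821E and 5 in R821A and was the only one of the 17 that had not passed against WT (adjusted p = 0.0672).

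The 4 members lower in R821E than in R821A were miR-4787-3p (1 count against 40), miR-3200-3p (4 against 55), miR-1915-3p (4 against 52) and miR-3615 (21 against 118). For miR-4787-3p the ratio was 0.0445, with a counting interval of 0.00110 to 0.262. The log2 changes of the other 3 were −2.85 ± 0.73, −2.82 ± 0.58 and −1.62 ± 0.35, with edgeR adjusted p-values of 0.00783, 0.00167 and 0.00248. All 4 fell on the spike-in scale too, by 2.54 to 5.05, and miR-1915-3p held without each library in turn. For these 4 miRNAs the R821A libraries were above both R821E libraries. Without R821E replicate 2 or R821A replicate 1 the count of 17 drops to 10, and without R821E replicate 1 or R821A replicate 2 to 11.

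In the other mutants almost no late-numbered miRNA passed the test. In R821A 1 member rose and 0 fell, beside 1.10% and 2.87% of all 453. It was miR-6724-5p, with 799 and 592 CPM against 421 and 359.7 in WT, a log2 change of 0.84 ± 0.22 (edgeR adjusted p = 0.0429), and the call did not hold without WT replicate 1, WT replicate 2 or R821A replicate 1. In E5 1 member rose and 0 fell, beside 2.21% and 5.52%. It was miR-3613-5p, with a change of 0.51 ± 0.15 (adjusted p = 0.0429) and −0.10 on the spike-in scale, and the call did not hold without any 1 of the 4 libraries. Scaled by spike-ins, 8 members fell in E5 and none rose, beside 22.3% lower of all 453, and miR-3200-3p, miR-1915-3p and miR-3615 were among the 8. The same scale gave 1 fall in A5 (9.71% of all 453), miR-3200-3p, and 1 in R821A (4.19% of all 453), miR-2110.

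In A5 and ΔPAZ helix 0 members passed by edgeR, beside 0.442% and 0.883% of all 453. An unadjusted p below 0.05 was reached by 7 and 6 members, beside 56 and 47 of all 453. Between E5 and A5 0 members passed, beside 0% of all 453. There 5 members had an unadjusted p below 0.05, beside 38 of all 453. DESeq2 made 0 calls among the members in these 3 comparisons as well. miR-6724-5p was nevertheless above both WT libraries in every library of E5, A5 and ΔPAZ helix, with log2 changes of 0.64, 0.70 and 0.68 and edgeR adjusted p-values of 0.104, 0.237 and 0.220. These comparisons share the WT libraries. Over the 5 mutants 50 members passed against WT in none, 23 in 1 and 2 in 2, and 26 of the 75 passed in at least 1 of the 7 comparisons made. Such counts were not made over all 453, of which 19.9% rose and 19.2% fell in R821E alone. They therefore do not set the members apart from the other miRNAs.

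For several members the 2 libraries of a group lay far apart. Of the 21 members with at least 200 counts, 5 differed over 2.5-fold between the partners of a group, while the median over members and groups was 1.28-fold. miR-4286 had 236 and 772 CPM in WT, 1789 and 392 in E5, 1613 and 623 in ΔPAZ helix and 669 and 2990.3 in R821E. Its change in R821E, 1.85 ± 1.04, did not pass (edgeR adjusted p = 0.213). miR-6087 had 24 and 228 counts in E5 and 94 and 33 in WT, and miR-1248, which lies within the small nucleolar RNA SNORA81, had 8 and 57 in E5 and 40 and 3 in WT. WT replicate 1 and E5 replicate 2 were thus both high for these, and without both of them 0 members passed in E5 and 2 in R821A. The remaining members past this bound were miR-3648 (30 and 9 counts in WT) and miR-6723-5p (29 and 8 in R821A).

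**Figure D5:**
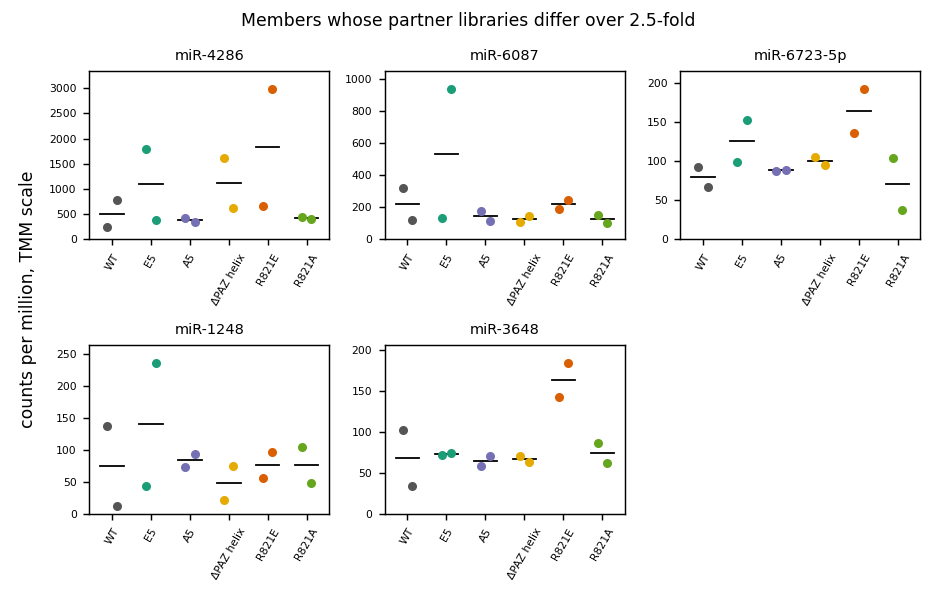
Level (y axis, CPM on the TMM scale) of the 5 members whose partner libraries differed over 2.5-fold in at least 1 group, with 2 libraries (points) a group and the mean as a line. For miR-4286 the R821E points lie at 669 and 2990.3.

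The 63 sequences were 17 to 27 bases long with a median of 22, and those of 329 other miRNAs with at least 36 counts were 18 to 25 with the same median. Members were richer in GC, with a median of 61.1% against 47.6%, and began with G in 23.8% against 8.51% and with U in 28.6% against 40.1%. A first U is common in miRNAs, since Argonaute proteins favour it. Across the 63 members Spearman's rho between GC content and the TMM log2 change in R821E was −0.13, beside −0.20 across the 329 others. These are descriptions across miRNAs that share the same libraries.

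By position on GRCh38, 25 of the 63 lay in introns on the same strand, 18 in exons, 17 outside genes and 3 in small nucleolar RNAs. In R821E 6 intronic members rose and 4 fell (median log2 change 0.21), 3 exonic rose and 3 fell (−0.11), and 5 outside genes rose and 2 fell (1.03), while miR-1248, miR-1291 and miR-3651, within SNORA81, SNORA2C and SNORA84, had a median of 0.30 and none passed. Of all 453 entries 19.9% rose and 19.2% fell, the other miRNAs were not counted by position, and no difference between positions was tested. miR-1226-5p, in an intron of DHX30 (chr3:47849555-47849580, +), is known as a mirtron, whose precursor is freed by splicing instead of Drosha. It was the only member on a short list of mirtrons with numbers close to its own. Whether members with other numbers are mirtrons was not checked. miR-1226-5p had 9 and 2 counts in WT and 9 and 1 in R821E, and its change of 0.84 ± 0.79 did not pass (edgeR adjusted p = 0.438).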

How the data were processed

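Small RNA was measured in 12 libraries. The deposited values are raw counts per miRNA and spike-in entry, whole numbers that the authors did not normalize, judging from the values. The submitters' processing notes name cutadapt, BWA, bedtools, hg38 and mm10. The sources used here give neither versions, nor the role of each build, nor the counting of reads that match several miRNAs. Groups come from the labels' genotypes. The test was edgeR's robust quasi-likelihood test with TMM factors (edgeR 4.0.16, R 4.3.3) in 1 fit over 12 libraries and the 453 miRNAs with at least 36 counts, a filter that all 75 members pass by their definition. P-values were adjusted by Benjamini-Hochberg over the 453, with a threshold of 0.05, and ± after a log2 change is its standard error. The 5p to 3p ratio was tested with limma 3.58.1 on log2 of (5p + 0.5)/(3p + 0.5) for hairpins with 36 counts in each arm. Intervals of ratios are exact (Clopper-Pearson, 95%). DESeq2 1.42.0, other scales and filters, the replicate number as a block and fewer libraries were tried. The edgeR script was tested on simulated data.

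Members and lists were chosen with earlier results of these data known. Named are, per comparison, up to 10 rises and 10 falls among called members in order of size. All 16 rises in R821E are plotted, and those past the first 10 were named after their values were seen. Also named are the 10 members highest in WT, members with both arms, the member on the mirtron list and members near the threshold. Chosen after their values were seen were miR-6087, miR-6723-5p, miR-1248, miR-1291 and miR-3651, and miR-4707-5p and miR-4713-5p on the spike-in scale. Positions are overlaps with GENCODE v29 on the same strand. Of the members, 12 had no entry in the sequence table used and are named only.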

Additional observations from a re-analysis of the deposited data

How the results depend on the processing

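The counts of members called in R821E against WT (25) and R821E against R821A (17) stayed within 1.5 times under most alternatives. The exceptions were 13 with at least 100 CPM for the first, 11 without a filter for the second, and left-out libraries, which gave 13 to 25 and 10 to 11. In the first the spike-in scale turned the split from 16 higher and 9 lower to 0 and 21, and total counts gave 11 and 11. The single call in E5 became 0 on total counts, with filterByExpr, by DESeq2, with at least 100 CPM and with only the 4 libraries, 8 on the spike-in scale, 2 without a filter, and 0 to 3 without 1 library. The single call in R821A became 0 with DESeq2 size factors, on total counts, without a filter, with filterByExpr and with the 4 libraries, and 0 to 1 without 1 library. A5 went from 0 to 1 on the spike-in scale and E5 against A5 gave 0 to 1 without 1 library. In an alternative chosen after seeing the data, without WT replicate 1 and E5 replicate 2, E5 gave 0, R821A 2 and R821E against WT 26. The arm ratio gave 0 calls with a mean of 20 counts in each arm. The cause of these differences was not tested, except that filterByExpr tests only 42 of the 75 members and the bound of 20 counts leaves 1 hairpin.

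On the spike-in scale the direction turned for miR-3613-5p in E5 (−0.10), for miR-1277-5p (−0.39), miR-3648 (−0.10), miR-4449 (−0.10), miR-4485-5p (−0.049), miR-4517 (−0.15) and miR-4521 (−0.17) in R821E against WT, and for miR-6724-5p in R821E against R821A (−0.24). The members' share, without miR-21-5p in the total, was 12.1% in R821E, 6.59% in R821A, 6.88% in ΔPAZ helix, 7.67% in A5, 7.42% in E5 and 5.74% in WT. Per spike-in count it was 0.763, 0.758, 0.730, 0.786, 0.699 and 0.827 in the same order.

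Same-numbered libraries do not pair: over 15 pairs of groups the correlation of their deviations ran from −0.40 to 0.32 and was over 0.1 in 1. With the replicate number as a block, 24 members were called in R821E against WT, 17 in R821E against R821A, 0 in each of the other 5 comparisons, and 1 hairpin by arm ratio. Depth limits the scarce members: 42 of 75 have fewer than 100 counts over the 12 libraries, and 12 of the 25 calls in R821E hold without each of the 4 libraries in turn.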
